A study of Mus musculus with 28 samples.

Results

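The endothelial and angiogenesis genes are 39 genes whose products build, signal to or mark blood and lymphatic vessels, and their expression was read on 26 tissue arrays and 2 arrays of cultured cells. The members were listed by name for what their products do, at a time when earlier results of these data were known. Each gene was read from 1 probe set, a group of short array probes for 1 transcript, namely the one with a single gene symbol and the highest mean over the 26 tissue arrays. All 39 members were found among the 18194 genes measured in this way, and 22 of them had more than 1 probe set. The list held 14 junction and surface genes, 9 receptors, 6 transcription factors, 4 lung capillary genes, 3 tumor vessel genes (Angpt2, Plvap, Apln), Angpt1, a ligand made by the cells that wrap vessels, and 2 lymphatic genes (Lyve1, Prox1). The junction and surface genes, receptors and transcription factors are called the 29 general members below.

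The study used JygMC(A), a mouse mammary carcinoma cell line carrying a reporter for green fluorescent protein and luciferase, of which 50000 cells were injected into the fourth mammary gland of female Balb/c athymic nude mice 8 weeks of age. Lung metastasis tissue (LungMets, 9 arrays) was collected on day 50 after injection and primary mammary tumor tissue (PT, 11 arrays) on day 30, so site and time differ together. The methods say that primary tumors were removed by day 30, as is done in patients. Where this was done in LungMets hosts, tumor removal differs together with site and time as well. Normal lung parenchyma (NL, 3 arrays) and normal mammary gland (NMG, 3 arrays) came from mice for which no injection is given. The methods give the same strain and 6 to 8 weeks of age for normal tissue embedded for laser capture. If these ages hold for the arrays, tumor hosts were older at collection, so age and tumor cannot be told apart. All tissue was bulk tissue, and all tumors grew from 1 cell line in hosts without a thymus. Cells were injected on both sides, and neither labels nor methods say which arrays share a mouse, within PT, within LungMets or between them, so arrays were treated as separate samples and the p-values measure the spread between arrays. In bulk tissue, fewer endothelial cells and less RNA per endothelial cell cannot be told apart. A further 2 arrays, 1 each, held the same cells grown as 3D spheres or as a monolayer.

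As background, blood vessels are lined by endothelial cells that are sealed to each other by VE-cadherin and claudins. They sense VEGF through Kdr, Flt1 and Flt4, and they sense angiopoietins through the receptor tyrosine kinase Tek and its partner Tie1. Transcription factors of the ETS family (Erg, Fli1, Ets1) and the SoxF group (Sox7, Sox17, Sox18) keep the endothelial program active. The lung holds the densest capillary bed of the body, with endothelial cells that carry Car4, Ednrb, Gpihbp1 and Tmem100, and a growing tumor draws its blood supply from the vessels of its host.

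The bases just before the start of a transcript are shown for 5 members, because they are the stretches where ETS factors may bind: Egfl7, Eng and Tie1 had their lowest mean in PT, while Erg and Apln were the only members called higher in PT than in NMG. The sequences come from RefSeq promoter windows on build GRCm38.p6, of which 18 of the 39 members had at least 1. Only the 250 bases before the start were used, and they were searched on both strands for the 6 bases AGGAAG, a common core of ETS sites. Capitals mark AGGAAG or its reverse complement.
Egfl7, chr2:26580833-26581082, + strand: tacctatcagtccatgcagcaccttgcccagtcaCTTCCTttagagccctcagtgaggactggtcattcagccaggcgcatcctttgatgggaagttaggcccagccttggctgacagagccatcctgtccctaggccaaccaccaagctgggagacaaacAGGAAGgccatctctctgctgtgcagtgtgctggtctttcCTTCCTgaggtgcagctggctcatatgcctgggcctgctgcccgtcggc
Eng, chr2:32646345-32646594, + strand: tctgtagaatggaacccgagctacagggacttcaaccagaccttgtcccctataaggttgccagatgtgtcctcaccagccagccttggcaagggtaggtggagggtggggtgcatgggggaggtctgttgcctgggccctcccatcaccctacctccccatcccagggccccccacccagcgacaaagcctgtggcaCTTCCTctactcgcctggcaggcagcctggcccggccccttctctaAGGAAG
Tie1, chr4:118489850-118490099, - strand: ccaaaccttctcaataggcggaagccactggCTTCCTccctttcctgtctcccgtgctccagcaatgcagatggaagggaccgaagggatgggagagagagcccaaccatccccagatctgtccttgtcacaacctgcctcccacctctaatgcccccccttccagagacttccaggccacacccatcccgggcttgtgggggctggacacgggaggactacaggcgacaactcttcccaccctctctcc
Erg, chr16:95459349-95459598, - strand: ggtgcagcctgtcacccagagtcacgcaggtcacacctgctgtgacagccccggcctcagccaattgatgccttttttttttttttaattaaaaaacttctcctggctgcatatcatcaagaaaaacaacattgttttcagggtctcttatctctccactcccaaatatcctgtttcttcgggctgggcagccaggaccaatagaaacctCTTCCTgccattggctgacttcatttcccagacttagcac
Apln, chrX:48034854-48035103, - strand: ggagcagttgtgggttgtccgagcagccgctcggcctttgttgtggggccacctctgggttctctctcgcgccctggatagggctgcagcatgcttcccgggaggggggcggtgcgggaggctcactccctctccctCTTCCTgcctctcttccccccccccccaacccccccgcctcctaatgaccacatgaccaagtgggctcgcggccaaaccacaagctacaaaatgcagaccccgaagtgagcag
Egfl7 held 3 matches in this window and Eng held 2, with 1 each in Tie1, Erg and Apln. Egfl7 and Erg have further start sites, and the window with most matches is shown; for Erg it lies inside the span of the longer transcript. Over all members with a window, 11 of 23 windows (47.8%) held the 6 bases, beside 29.5% of the 32851 windows in the table. Members with none in their windows included Kdr, Tek, Clec14a and Cldn5. They too had their lowest mean in PT, as did 34 of the 39 members. Only windows with a match were chosen for display, and the further Erg windows held none. A relation between matches and expression was not tested. A match says only that the letters are present.

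The deposited values are log2 signals after robust multi-array averaging (RMA), a method that corrects background and scales the arrays to a common distribution, and their array medians lay between 5.00 and 5.18. PT replicate 5 and LungMets replicate 9 stood apart from their groups, since PT replicate 5 correlated best with the LungMets mean (0.989, against 0.968 with the other PT) and LungMets replicate 9 with the PT mean (0.983, against 0.963 with the other LungMets). Results that rest on these arrays are given with and without them. The labels carry a date for each array: 4 LungMets and 4 PT share date batch 1, 5 LungMets and 7 PT share date batch 2, and NL and NMG each have a date of their own, so that for these 2 tissues date and group cannot be told apart. Comparisons used limma over all 18194 genes, and a gene was called at a Benjamini-Hochberg adjusted p under 0.05.

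NL had the highest group mean for 34 of the 39 members and PT the lowest for 34, and the same counts over all genes were not made. The mean of the 29 general members was 6.93, 8.05 and 8.91 (lowest, median and highest array) in LungMets, 5.53, 6.67 and 7.82 in PT, 10.01, 10.02 and 10.10 in NL and 7.74, 7.92 and 8.05 in NMG. NL therefore stood above every other array, while LungMets spread from the PT range to well above NMG. Nos3, Ets1 and Fli1 had their highest mean in NMG, and Apln and Prox1 in LungMets.

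**Figure D1:**
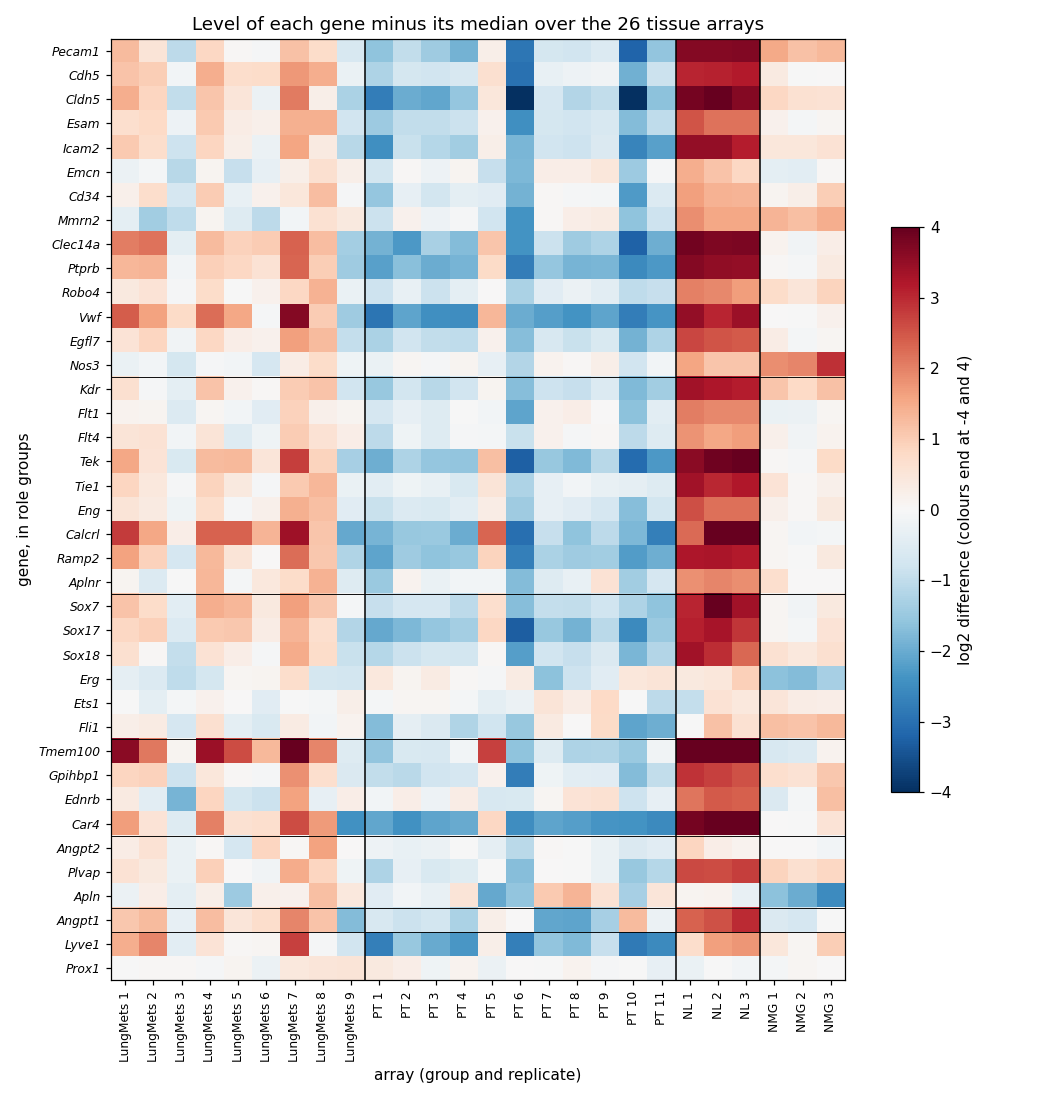
Level of each of the 39 genes (rows, in role groups) on each of the 26 tissue arrays (columns, by group and replicate), as log2 minus the gene's median over the arrays; red is higher and blue lower. The 3 NL arrays are red for most rows, PT replicates 6 and 10 are the bluest columns, and PT replicate 5 and LungMets replicate 9 look unlike the rest of their groups.

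LungMets carried higher levels of most endothelial genes than PT. Of the 39 members 29 were called higher, beside 9.02% of all genes tested, and 0 lower, beside 6.14% (15.2% of all genes were called in either direction). The median difference was 1.27 over the members and -0.02 over all genes. With all arrays no member separated the groups fully, beside 0.066% of all genes that did so upward and 0.044% downward. Without the 2 arrays that stood apart 29 were again called higher, beside 10.9% of all genes, and 0 lower, beside 9.24%. Every LungMets array then lay above every PT array for 18 members, beside 3.11% of all genes, and below for 0, beside 0.83%. Of the 29, 15 had further probe sets with the same symbol, and for 8 of these 15 at least 1 of them was called higher as well in a fit over all probe sets with 1 symbol; for Angpt1, Angpt2, Aplnr, Calcrl, Cdh5, Flt4 and Sox7 the call rests on the probe set used. The 10 members not called in LungMets against PT were Emcn, Mmrn2, Nos3, Flt1, Erg, Ets1, Fli1, Ednrb, Apln and Prox1.

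Among the junction and surface genes 11 of 14 were higher in LungMets than in PT. Vwf, the clotting protein stored in endothelial granules and also made by megakaryocytes, had 5.42, 8.40 and 10.51 (lowest, median and highest) in LungMets, against 3.92, 4.48 and 8.19 in PT. The groups overlapped only through PT replicate 5, whose value of 8.19 lay above 4 LungMets arrays. Vwf was 10.2-fold higher in LungMets (log2 difference 3.36, SE 0.504, adjusted p = 0.00012), and 4.04 on the log2 scale without both arrays. The mean of 5 megakaryocyte markers was 5.52, 5.80 and 8.10 in LungMets, against 5.51, 5.70 and 5.89 in PT, and its highest value fell on LungMets replicate 7, which also had the highest Vwf; its part in the Vwf difference was not tested. Ptprb, the phosphatase that acts on Tek and VE-cadherin, had 7.0, 9.40 and 10.77 in LungMets, against 5.67, 6.57 and 9.20 in PT, and was 5.90-fold higher (2.56, SE 0.379, adjusted p = 0.000119). Clec14a, an endothelial surface lectin, had 5.86, 8.44 and 9.58 in LungMets, against 3.96, 5.48 and 8.30 in PT (2.60, SE 0.444, adjusted p = 0.000322). These 3 genes gave the largest differences of the role group, and none overlapped between groups once the 2 arrays that stood apart were left out.

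Pecam1, an adhesion molecule of endothelial contacts that platelets and leukocytes also carry, had 5.40, 6.95 and 7.71 in LungMets, against 3.24, 5.01 and 6.67 in PT (1.71, SE 0.356, adjusted p = 0.00186). LungMets replicate 3 was the lowest of its group at 5.40 and lay within the PT range also without the 2 arrays that stood apart. Cdh5, VE-cadherin, had 7.38, 8.65 and 9.39 in LungMets, against 4.67, 6.96 and 8.31 in PT (1.69, SE 0.331, adjusted p = 0.0011), while its other probe set, of lower signal, differed by 0.21 (adjusted p = 0.196). The remaining called members of the role group were Cldn5 (a tight junction claudin), Esam, Icam2, Cd34, Robo4 and Egfl7, with differences of 1.02 to 2.30. Emcn, a mucin of capillary and venous endothelium, had 6.26, 7.26 and 8.00 in LungMets, against 5.55, 7.31 and 7.80 in PT, and its difference of 0.20 (SE 0.266, adjusted p = 0.664) was smaller than its standard error. Mmrn2, a matrix protein that binds Clec14a, and Nos3, the endothelial nitric oxide synthase, also differed by less than their standard error (0.17 and 0.07).

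**Figure D2:**
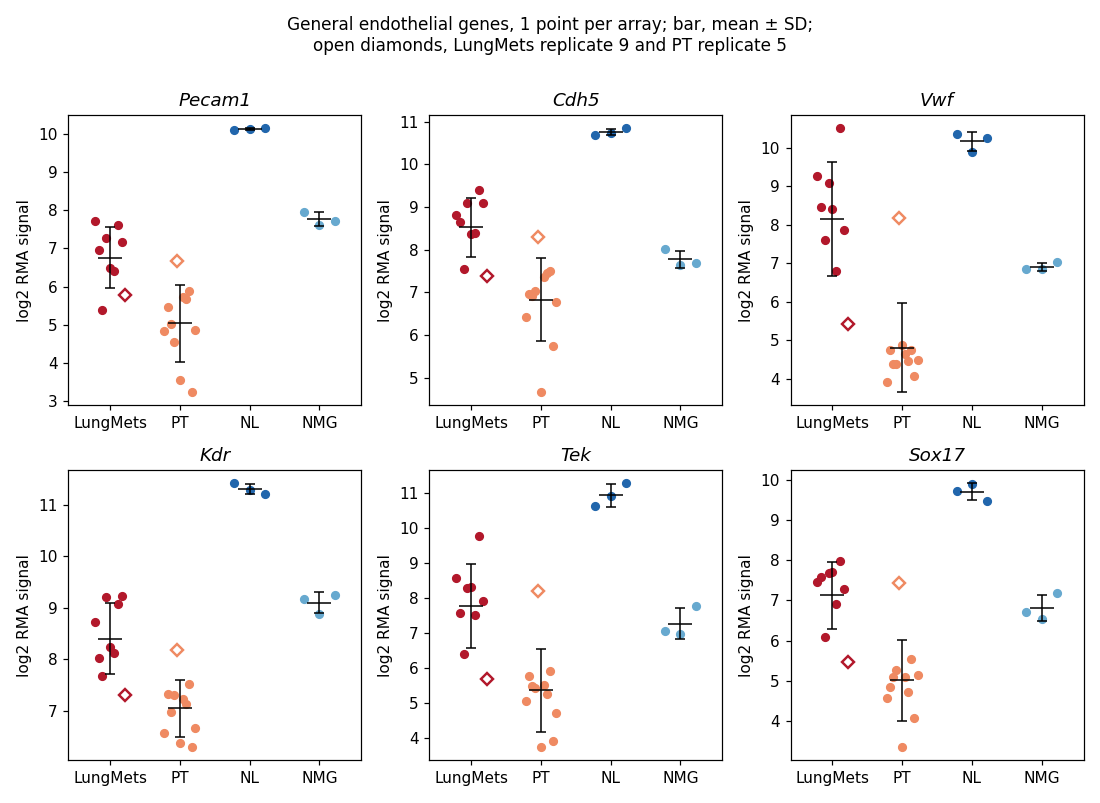
Log2 RMA signal (vertical axes) of 6 general members on each array of LungMets, PT, NL and NMG; points are arrays, the bar and whiskers are mean and SD, and open diamonds are LungMets replicate 9 and PT replicate 5. Apart from the diamonds, most LungMets points sit above the PT points, and the 3 NL points sit above nearly all others.

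Of the 9 receptors 8 were higher in LungMets than in PT. Calcrl and Ramp2 together form the receptor for adrenomedullin. Calcrl had 6.29, 9.89 and 11.73 in LungMets, against 5.31, 6.74 and 10.65 in PT (2.88, SE 0.588, adjusted p = 0.00162), and Ramp2 had 7.07, 9.20 and 10.50 in LungMets, against 5.55, 6.76 and 9.16 in PT (2.16, SE 0.387, adjusted p = 0.000499). Tek, the angiopoietin receptor also called Tie2, had 5.70, 7.91 and 9.77 in LungMets, against 3.75, 5.43 and 8.21 in PT, and was 5.32-fold higher (2.41, SE 0.46, adjusted p = 0.000888). A further Calcrl probe set of lower signal differed by 0.94 (adjusted p = 0.0655). Tie1, the partner of Tek, differed by 0.86 (SE 0.192, adjusted p = 0.00344).

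Of the VEGF receptors, Kdr and Flt4 were called on the probe sets used and Flt1 was not. Kdr, the main signaling receptor for VEGF-A, had 7.30, 8.23 and 9.22 in LungMets, against 6.29, 7.13 and 8.17 in PT (1.35, SE 0.241, adjusted p = 0.000489). Flt4, the receptor for VEGF-C and VEGF-D, differed by 0.67 (SE 0.182, adjusted p = 0.0137). Flt1, which binds VEGF-A and also exists as a soluble decoy, had 6.87, 7.54 and 8.37 in LungMets, against 5.33, 7.10 and 7.70 in PT, and was not called (0.53, SE 0.245, adjusted p = 0.153). A dimmer Flt1 probe set was called higher (1.66, adjusted p = 0.00124), and the other Flt1 probe sets differed by 0.32 and -0.06 and were not called. Whether the differences of the VEGF receptors differ from each other was not tested. Eng, a co-receptor for the TGF-beta family, differed by 1.10 (SE 0.226, adjusted p = 0.00172). Aplnr, the apelin receptor, differed by 0.86 (SE 0.283, adjusted p = 0.0413) but lost its call without any 1 of 10 arrays (5 LungMets and 5 PT), where the adjusted p lay between 0.051 and 0.0925.

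The transcription factors are given by family, and whether the families differ from each other was not tested. The SoxF genes were all higher in LungMets than in PT: Sox17 had 5.46, 7.46 and 7.98 in LungMets, against 3.34, 5.09 and 7.45 in PT (2.12, SE 0.365, adjusted p = 0.000353). Sox7 differed by 1.71 (SE 0.269, adjusted p = 0.000162) and Sox18 by 1.19 (SE 0.275, adjusted p = 0.0045). On the probe sets used none of the ETS genes was called: Fli1 differed by 0.81 (SE 0.311, adjusted p = 0.0801), Ets1 by -0.06 and Erg by -0.28. Of the 3 further Ets1 probe sets 2 were called lower in LungMets (-0.75, adjusted p = 0.00114, and -0.69, adjusted p = 0.0013) and the brightest of them was not (-0.20, adjusted p = 0.375). Erg had 6.94, 7.40 and 8.64 in LungMets, against 6.30, 8.04 and 8.45 in PT, so the groups shared nearly the whole range.

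Markers of lung epithelium moved with the endothelial genes in this comparison. All 13 of the lung epithelium markers tested (of 14 listed) were called higher in LungMets than in PT, and their mean was 6.22, 10.72 and 11.08 in LungMets, against 4.66, 5.04 and 10.24 in PT. The lowest LungMets array was replicate 9 and the highest PT array was replicate 5, the same 2 arrays as above. In NL this mean was 12.19, 12.20 and 12.21, and in NMG it was 5.41, 5.83 and 7.33. The highest NMG value was that of replicate 1, and PT replicate 7 read 6.84. Of 11 leukocyte markers 1 was higher, and of 10 mural cell markers 2 were higher and 1 lower. The part that lung tissue within the LungMets fragments plays in the endothelial differences was not tested.

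The differences were also computed within date. With date batch as a block 26 members were higher in LungMets than in PT, beside 7.34% of all genes, and 0 lower, beside 3.98%; Aplnr, Angpt2 and Angpt1 lost their calls (adjusted p = 0.0838, 0.0897 and 0.0579). In batch 1 alone 22 were higher, beside 5.63% of all genes, and Erg was lower by 0.88 on the log2 scale (-0.88, SE 0.149, adjusted p = 0.0108), beside 2.02%. In batch 2 alone, which holds both arrays that stood apart, limma called 0 of the 39 members and 0 of the 18194 genes; 28 members and 2670 genes had an unadjusted p under 0.05, and 38 of 39 differences were positive with a median of 1.30. Without the 2 arrays batch 2 gave 20 members higher, beside 4.15% of all genes, and 0 lower, beside 1.79%. Vwf differed by 4.26 in batch 1 and 2.74 in batch 2, Tek by 2.26 and 2.51, and Kdr by 1.37 and 1.33.

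**Figure D3:**
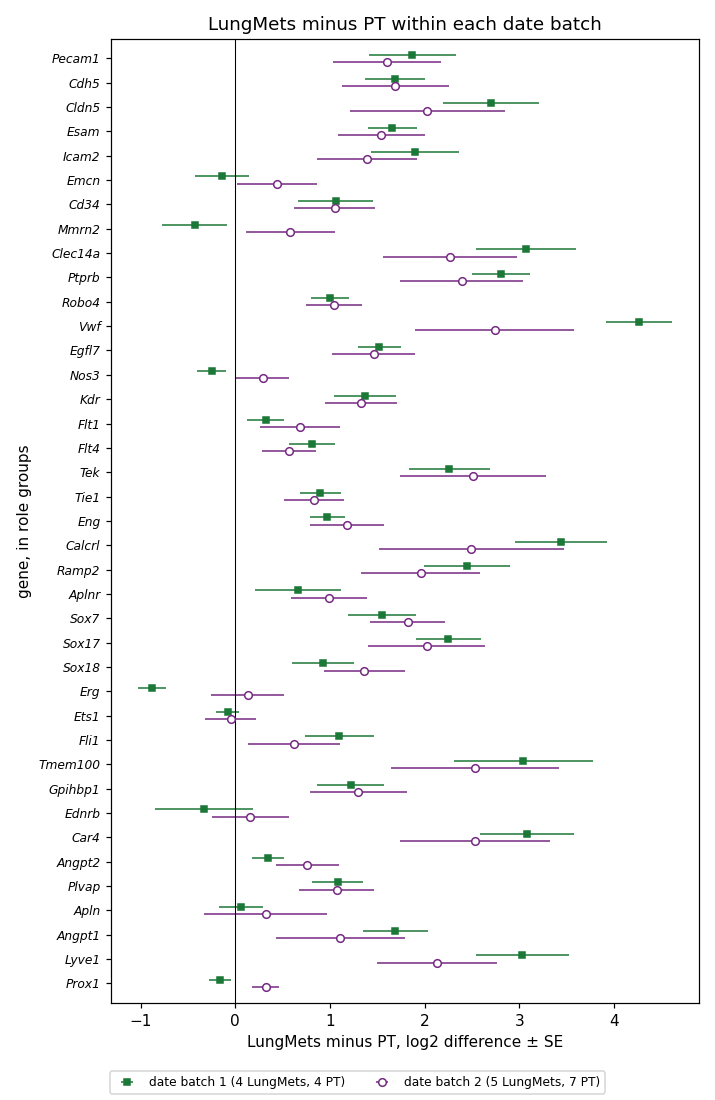
LungMets minus PT (horizontal axis, log2 difference with SE) for each of the 39 genes (vertical axis) within date batch 1 (filled squares, 4 LungMets and 4 PT) and date batch 2 (open circles, 5 LungMets and 7 PT). Right of 0 lie 32 of the 39 genes in batch 1 and 38 in batch 2, and Erg lies at -0.88 in batch 1 and at 0.13 in batch 2.

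PT had lower levels of most endothelial genes than NMG. Of the 39 members 24 were called lower, beside 21% of all genes, and 2 higher, beside 26.7% (47.7% of all genes were called in either direction). The median difference was -1.31 over the members and 0.09 over all genes. For 12 members every PT array lay below every NMG array, beside 16% of all genes, and for 0 above, beside 18.3%. Without the 2 arrays that stood apart 27 members were called lower, beside 21.5% of all genes, and 27 lay below every NMG array, beside 17.3%. Of the 26 members called 11 had further probe sets, and for 7 of them at least 1 was called the same way; Clec14a, Erg, Sox17 and Sox7 had none. With 3 NMG arrays the count depended on each of them: 16 members were called in either direction without NMG replicate 3, 20 without replicate 1 and 21 without replicate 2, against 26 with all arrays.

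Of the junction and surface genes 12 of 14 were lower in PT than in NMG. Pecam1 had 3.24, 5.01 and 6.67 in PT, against 7.60, 7.73 and 7.97 in NMG, with every PT array below every NMG array, and was 6.60-fold lower (-2.72, SE 0.516, adjusted p = 0.000113). Cldn5 had 4.34, 7.05 and 9.15 in PT, against 9.28, 9.29 and 9.51 in NMG (-2.55, SE 0.716, adjusted p = 0.00487). Nos3 had 4.81, 5.94 and 6.20 in PT, against 7.82, 7.92 and 8.90 in NMG (-2.43, SE 0.273, adjusted p = 8.49e-08). All 3 genes were without overlap, although the highest PT array for Cldn5, replicate 5, came close to NMG. Cdh5 had 4.67, 6.96 and 8.31 in PT, against 7.64, 7.68 and 8.01 in NMG, and was not called (-0.94, SE 0.48, adjusted p = 0.109); without the 2 arrays that stood apart its difference was -1.09 (adjusted p = 0.0372). Emcn did not differ beyond its error either (-0.11, SE 0.385, adjusted p = 0.834).

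Of the receptors 4 of 9 were lower in PT than in NMG: Kdr, Tek, Ramp2 and Eng. The calls of Tek and Ramp2 were lost without NMG replicate 3 (adjusted p = 0.11 and 0.0748), and that of Eng without any 1 of the NMG arrays (0.0508 to 0.114), as were those of Vwf (0.0562 to 0.0718), Esam (0.0517 to 0.0832) and Sox7 (0.0527 to 0.148). Kdr had 6.29, 7.13 and 8.17 in PT, against 8.87, 9.17 and 9.24 in NMG (-2.05, SE 0.349, adjusted p = 3.19e-05), and every PT array lay below every NMG array. Flt1 and Flt4 differed by -0.35 and -0.44 and were not called; of the further Flt1 probe sets 1 was lower (-1.39, adjusted p = 0.0169), 1 higher (0.53, adjusted p = 0.0291) and 1 not called (-0.37). Among the transcription factors Sox7, Sox17, Sox18 and Fli1 were lower. Fli1 had 4.54, 5.86 and 7.41 in PT, against 7.80, 7.86 and 7.95 in NMG (-2.05, SE 0.451, adjusted p = 0.00058).

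Erg went the other way on the probe set used. It had 6.30, 8.04 and 8.45 in PT, against 6.22, 6.30 and 6.63 in NMG, and 10 of 11 PT arrays lay above every NMG array, PT replicate 7 being the exception. The difference was 1.49 (SE 0.35, adjusted p = 0.00108), and it was 1.49 without the 2 arrays that stood apart. The other Erg probe set, of lower signal, did not show it: it differed by 0.16 between PT and NMG (adjusted p = 0.459) and by 0.10 between LungMets and NMG (adjusted p = 0.697). Erg is also active in developing cartilage. A list of 11 cartilage genes, put together after the Erg values had been seen, had a mean of 6.58, 7.45 and 7.66 in PT, against 4.13 to 4.58 in NMG. Of the 11 genes 9 were higher in PT than in NMG, beside 26.7% of all genes, and 5 were lower in LungMets than in PT, beside 6.14%. The part of cartilage-like cells in the Erg difference between PT and NMG was not tested. The correlation that follows covers only the spread among PT arrays, not that difference. Over the 11 PT arrays Erg and this mean were correlated at r = 0.0495 (permutation p = 0.88) and rho = 0.0545 (permutation p = 0.88), and at r = 0.301 without PT replicates 1 and 5, the arrays farthest from the median; in date batch 2 (7 arrays) r was 0.0774, and date batch 1 holds too few PT arrays for a value to be read.

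Other cell types differed between PT and NMG as well. All 7 adipocyte markers tested (of 10 listed) were lower in PT, with a mean of 4.62, 5.53 and 6.14 in PT, against 10.34, 10.50 and 11.27 in NMG. Of 11 leukocyte markers 9 were lower, with a mean of 6.45, 7.52 and 8.74 in PT, against 9.70, 9.70 and 9.83 in NMG. Of 10 markers of mural cells, the pericytes and smooth muscle that surround vessels, 6 were lower, with a mean of 6.70, 7.63 and 8.00 in PT, against 8.78, 8.83 and 8.96 in NMG. Their part in the endothelial differences was not tested.

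LungMets were lower than NL for most endothelial genes. Of the 39 members 32 were called lower, beside 22.4% of all genes, and 0 higher, beside 23.8% (46.2% of all genes were called in either direction). The median difference was -2.02 over the members and 0.05 over all genes. For 30 members every LungMets array lay below every NL array, beside 17.4% of all genes. All 14 junction and surface genes and 8 of 9 receptors were lower. Pecam1 had 5.40, 6.95 and 7.71 in LungMets, against 10.12, 10.13 and 10.15 in NL, and was 10.4-fold lower (-3.38, SE 0.528, adjusted p = 1.19e-05). Tie1 had 4.58, 5.28 and 6.18 in LungMets, against 7.85, 8.06 and 8.19 in NL (-2.68, SE 0.285, adjusted p = 5.03e-08). Kdr was 7.51-fold lower (-2.91, SE 0.357, adjusted p = 4.22e-07), with 7.30, 8.23 and 9.22 in LungMets, against 11.21, 11.29 and 11.41 in NL. None of these 3 genes overlapped between the groups. Vwf was the exception among the junction and surface genes: its highest LungMets array (10.51) lay above the highest NL array (10.36), and its call (-2.01, SE 0.748, adjusted p = 0.03) was lost without any 1 of the NL arrays, with adjusted p between 0.0598 and 0.0925. The lung epithelium mean was lower on every LungMets array too, with 6 of 13 markers called lower.

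**Figure D4:**
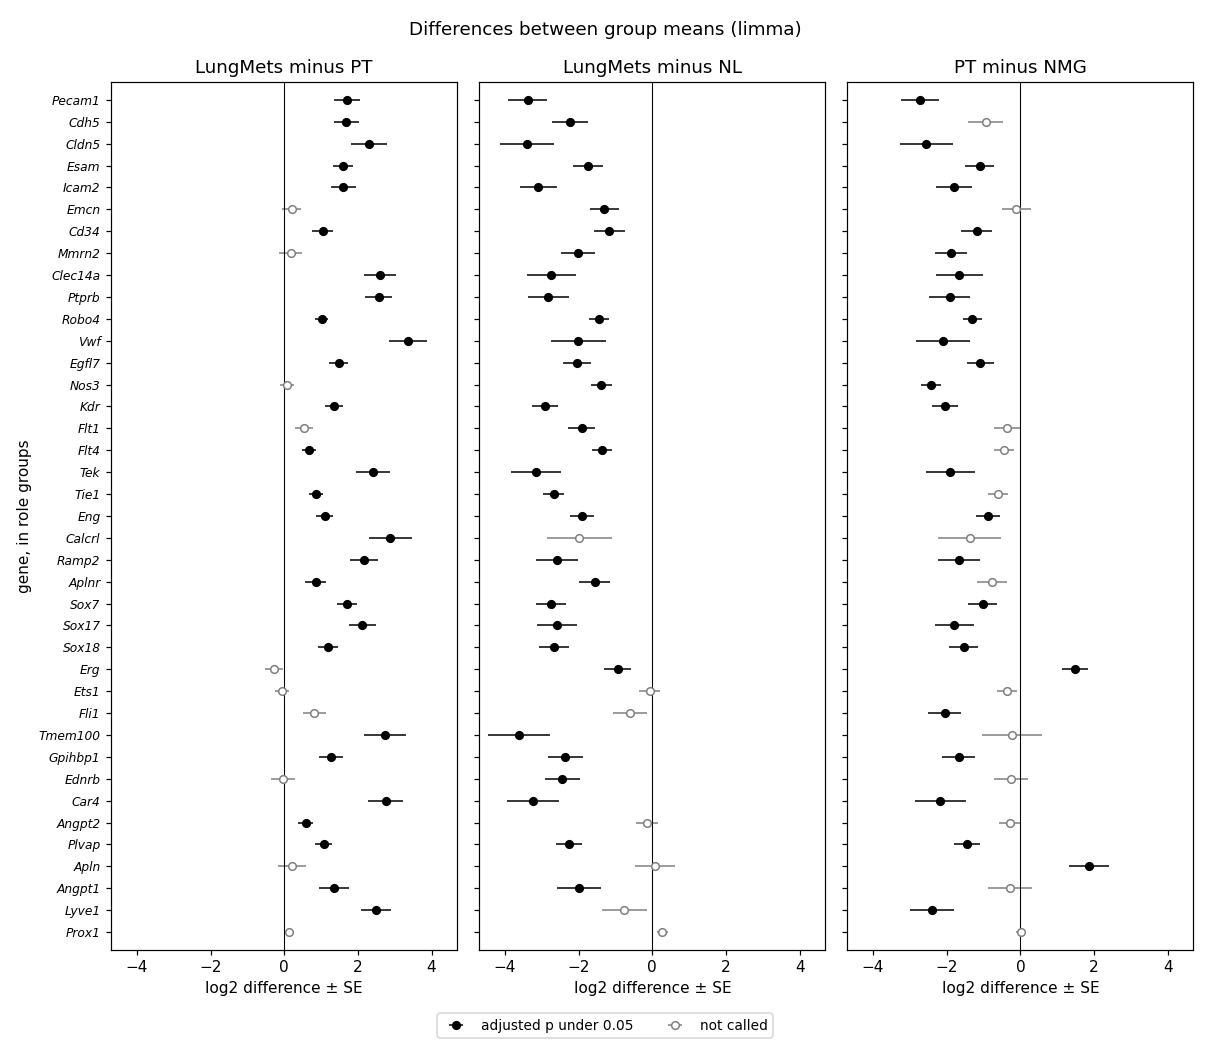
Log2 difference between group means with SE (horizontal axes) for the 39 genes (vertical axis) in LungMets minus PT, LungMets minus NL and PT minus NMG; filled points passed an adjusted p under 0.05. The filled points lie right of 0 in the first panel and left of 0 in the second, while the third has filled points left of 0 except Erg (1.49) and Apln (1.87).

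Against NMG, LungMets differed in few endothelial genes. Of the 39 members 3 were called higher, beside 23.1% of all genes, and 3 lower, beside 17.9% (41% of all genes were called in either direction). For 2 members every LungMets array lay above every NMG array, beside 15.3% of all genes, and for 4 below, beside 14.4%. Erg (1.21), Tmem100 (2.52) and Apln (2.09) were higher, and Mmrn2 (-1.72), Nos3 (-2.36) and Fli1 (-1.23) were lower. The Tmem100 call was lost without NMG replicate 1 or 2 (adjusted p = 0.0659 to 0.0726) and the Fli1 call without any 1 of 6 arrays, LungMets replicates 3, 5 and 6 and each NMG array (0.0507 to 0.108). Nos3 had 5.28, 5.85 and 6.70 in LungMets, against 7.82, 7.92 and 8.90 in NMG (adjusted p = 3.01e-07), so it was low in both tumor groups. The remaining 33 members did not pass the test, among them Cdh5 (0.75, SE 0.491, adjusted p = 0.232) and Pecam1 (-1.01, SE 0.528, adjusted p = 0.129). Erg and Tmem100 had further probe sets, none of which was called higher. Without the 2 arrays that stood apart 10 members were higher, beside 24.1% of all genes, among them Vwf (1.6), Calcrl (1.94) and Clec14a (1.24), and 3 lower, beside 18.3%.

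The normal organs differed strongly. Of the 39 members 31 were higher in NL than in NMG, beside 14.3% of all genes, and 1, Nos3, was lower (-0.98, SE 0.342, adjusted p = 0.0326), beside 14.5% (28.9% of all genes were called in either direction). The Nos3 call was lost without NL replicate 2 or 3 or NMG replicate 3 (adjusted p between 0.102 and 0.227). For 34 members every NL array lay above every NMG array, beside 23.6% of all genes. Among the general members Clec14a was 12.8-fold, Tek 12.7-fold, Calcrl 11.1-fold, Ptprb 11-fold and Sox7 10.8-fold higher in NL. Mmrn2 (0.30), Ets1 (-0.35), Fli1 (-0.63) and Cd34 (1.03) were general members not called. NL and NMG carry different dates, so date and organ cannot be told apart here.

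Each tumor was then set against its own organ. The difference between LungMets minus NL and PT minus NMG was below 0 and called for 6 members, beside 9.68% of all genes, and above 0 for 0, beside 10.1% (19.8% of all genes were called in either direction). The 6 members were Tmem100 (-3.40, SE 1.17, adjusted p = 0.0409), Erg (-2.43, SE 0.502, adjusted p = 0.000899), Ednrb (-2.18, SE 0.666, adjusted p = 0.0211), Tie1 (-2.06, SE 0.399, adjusted p = 0.000455), Sox7 (-1.73, SE 0.559, adjusted p = 0.0292) and Flt1 (-1.57, SE 0.507, adjusted p = 0.0291). Erg differed by -0.94 between LungMets and NL (adjusted p = 0.0343; 0.0549 without the 2 arrays that stood apart) and by 1.49 between PT and NMG. Tie1 differed by -2.68 between LungMets and NL and by -0.61 between PT and NMG. Its PT signal was low, at 3.61, 4.51 and 5.35, against 4.89, 5.05 and 5.39 in NMG. The cultured cells read 4.47 as spheres and 4.10 as a monolayer. Sox7 had 4.64, 5.39 and 7.01 in PT, against 6.20, 6.45 and 6.75 in NMG, and read 5.19 and 4.90 in the cultures. How far such low PT signals limit a further fall was not tested. For Pecam1 the 2 differences were -3.38 and -2.72, and their difference of -0.65 (SE 0.738, adjusted p = 0.633) was within its error. Cdh5 was not called on the probe set used (-1.29, adjusted p = 0.216), but its dimmer probe set was (-2.25, adjusted p = 3.29e-08), and so was the dimmer Erg probe set (-1.06, adjusted p = 0.00306). Only Erg and Tie1 kept their call whichever array was left out; the calls of Tmem100, Flt1, Ednrb and Sox7 were lost without any 1 of 11, 5, 4 and 3 arrays, with adjusted p up to 0.126.

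Tmem100 and Car4 gave the largest differences between NL and NMG of the 39 members, whereas Ednrb (2.14) and Gpihbp1 (1.94) lay within the range of the general members. Tmem100, a membrane protein of lung endothelium, had 4.75, 7.37 and 10.08 in LungMets, 3.65, 4.62 and 7.99 in PT, 10.58, 11.22 and 11.30 in NL and 4.60, 4.7 and 5.39 in NMG. It was 70.3-fold higher in NL than in NMG (6.13, SE 1.03, adjusted p = 4.66e-05) and 6.67-fold higher in LungMets than in PT (2.74, SE 0.564, adjusted p = 0.00174). The highest PT value was that of replicate 5. Car4, a carbonic anhydrase on the surface of lung capillaries, had 4.15, 7.26 and 9.20 in LungMets, 4.04, 4.39 and 7.39 in PT, 10.40, 10.67 and 10.71 in NL and 6.57, 6.59 and 7.14 in NMG. The cultured cells read 4.71 as spheres and 4.42 as a monolayer, so the PT median lay below the level without vessels. Both fold changes of Car4 that involve PT therefore rest on a PT signal near background. Car4 was 6.76-fold higher in LungMets than in PT (2.76, SE 0.477, adjusted p = 0.000369) and 4.52-fold lower in PT than in NMG (-2.18, SE 0.692, adjusted p = 0.0116; adjusted p = 0.0628 without NMG replicate 3). Gpihbp1, which carries lipoprotein lipase across capillaries and is also abundant in vessels of fat, was higher in LungMets than in PT by 1.27 (SE 0.314, adjusted p = 0.0074) and lower in PT than in NMG (-1.68, SE 0.454, adjusted p = 0.00365).

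Ednrb, the endothelin B receptor, did not follow the other lung capillary genes. It had 5.22, 6.76 and 8.70 in LungMets, 6.27, 6.98 and 7.72 in PT, 9.23, 9.47 and 9.53 in NL and 6.53, 7.02 and 8.28 in NMG. LungMets and PT differed by -0.04 (SE 0.321, adjusted p = 0.955), with the PT values inside the LungMets range. All 4 lung capillary genes were lower in LungMets than in NL, with differences of -3.62 to -2.36 and without overlap.

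The 3 tumor vessel genes are described in turn, and whether they differ from each other was not tested. Plvap and Angpt2 both had their highest group mean in NL and their lowest in PT. Plvap, which forms the diaphragms of fenestrae and caveolae, had 8.66, 9.31 and 10.40 in LungMets, 7.22, 8.43 and 8.94 in PT, 11.54, 11.55 and 11.68 in NL and 9.54, 9.75 and 9.81 in NMG. It was thus lowest in PT, lower there than in NMG without overlap (-1.45, SE 0.348, adjusted p = 0.0013), and higher in LungMets than in PT (1.07, SE 0.24, adjusted p = 0.00337), the pattern of most general members. Angpt2, the Tek ligand released by sprouting endothelium, had 5.74, 6.46 and 8.03 in LungMets, 5.33, 6.16 and 6.47 in PT, 6.55, 6.68 and 7.28 in NL and 6.29, 6.42 and 6.44 in NMG. LungMets overlapped with each of the other groups, NL lay above every PT and NMG array, and the call in LungMets against PT (0.59, SE 0.203, adjusted p = 0.0488) was lost in 19 of the 26 settings that left out 1 array, with adjusted p between 0.053 and 0.0966. PT and NMG differed by -0.28 (SE 0.294, adjusted p = 0.451).

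Apln, the apelin ligand made by endothelial tip cells, had 6.07, 7.71 and 8.71 in LungMets, 5.48, 7.39 and 8.87 in PT, 7.21, 7.64 and 7.64 in NL and 5.02, 5.54 and 5.88 in NMG. NMG was the low group: Apln was 3.67-fold higher in PT than in NMG (1.87, SE 0.537, adjusted p = 0.00567) and 4.25-fold higher in LungMets than in NMG (2.09, SE 0.55, adjusted p = 0.00373). All LungMets arrays lay above every NMG array, and in PT the lowest value, that of replicate 5, overlapped with NMG. LungMets and PT differed by 0.21 (SE 0.371, adjusted p = 0.751). The cultured tumor cells read 7.21 as spheres and 8.09 as a monolayer, within the range of the tumor arrays; how much of the tumor signal comes from tumor cells was not tested. Its receptor Aplnr read 3.55 and 2.74 in the same cultures and was 8.53, 9.19 and 10.47 in LungMets, against 7.34, 8.78 and 9.66 in PT.

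Angpt1, the Tek ligand made by mural and mesenchymal cells, had 5.25, 8.05 and 8.92 in LungMets, against 4.86, 6.24 and 8.22 in PT, and was higher in LungMets (1.35, SE 0.405, adjusted p = 0.0247; adjusted p = 0.0612 without LungMets replicate 7), while a further probe set of lower signal differed by 0.14 (adjusted p = 0.551 in the fit over all probe sets with 1 symbol). It was 9.32, 9.52 and 9.95 in NL, against 6.31, 6.38 and 6.96 in NMG (3.05, SE 0.735, adjusted p = 0.00226). PT and NMG did not differ beyond their spread (-0.28, SE 0.586, adjusted p = 0.72).

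The lymphatic genes gave 1 clear signal. Lyve1, a hyaluronan receptor of lymphatic endothelium that some macrophages also carry, had 7.79, 8.63 and 11.30 in LungMets, 5.76, 6.55 and 8.79 in PT, 9.26, 10.22 and 10.35 in NL and 8.66, 9.02 and 9.55 in NMG. It was 5.65-fold higher in LungMets than in PT (2.50, SE 0.412, adjusted p = 0.000235) and 5.24-fold lower in PT than in NMG (-2.39, SE 0.596, adjusted p = 0.00183). LungMets was called neither against NL (-0.76, SE 0.611, adjusted p = 0.324) nor against NMG (0.11, SE 0.611, adjusted p = 0.904). Prox1, the transcription factor that sets lymphatic identity, lay between 2.61 and 3.45 on every tissue array. The mean of 3 Y-linked genes, which female hosts lack, was 2.86 to 3.23 on the same arrays, so Prox1 was near the level of absent transcripts on the probe set used. On that probe set it was called in no comparison. Of the 3 Prox1 probe sets, 1 not used was called lower in PT than in NMG, and 1 not used was called lower in LungMets than in NMG.

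**Figure D5:**
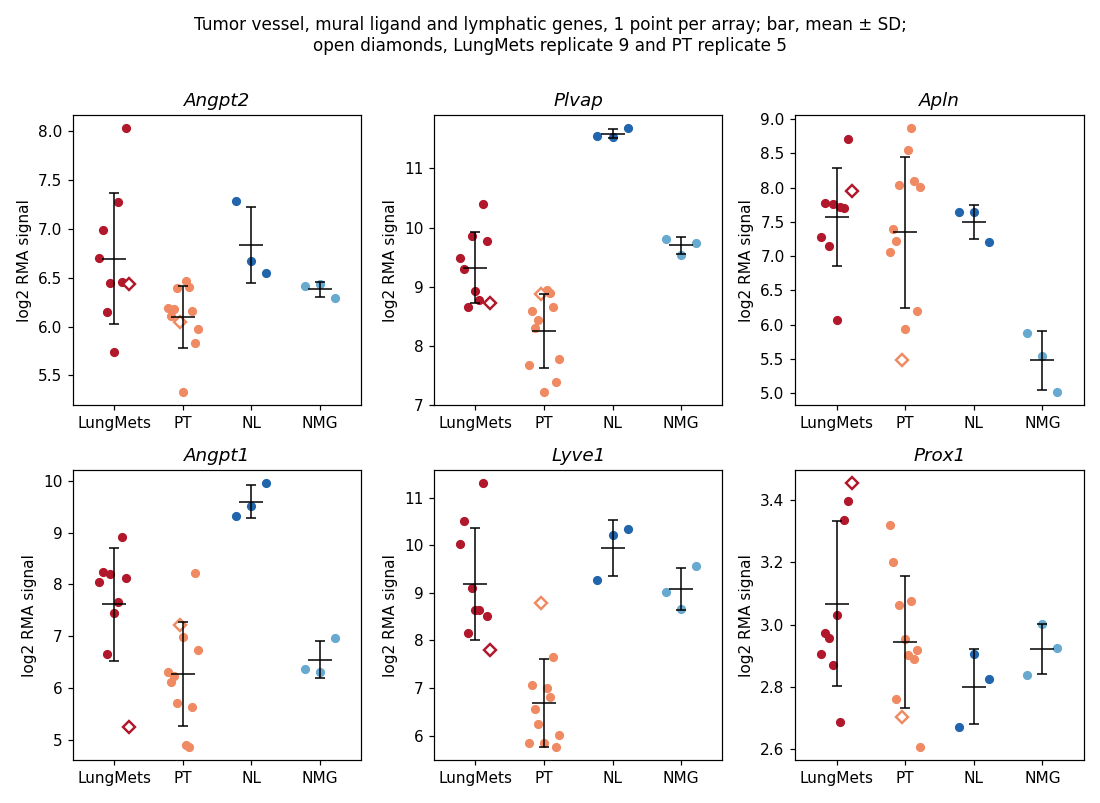
Log2 RMA signal (vertical axes) of Angpt2, Plvap, Apln, Angpt1, Lyve1 and Prox1 on each array of LungMets, PT, NL and NMG; points are arrays, the bar and whiskers are mean and SD, and open diamonds are LungMets replicate 9 and PT replicate 5. Apln has its lowest group in NMG (5.02 to 5.88), which the lowest PT array (5.48) overlaps, Lyve1 is low in PT, and Prox1 stays between 2.61 and 3.45 everywhere.

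The PT arrays also varied among themselves. PT replicates 6 and 10 were each among the lowest 2 PT arrays for 23 of the 29 general members, and PT replicate 5 was the highest for 19 of 29. Pecam1 read 3.55 and 3.24 on replicates 6 and 10, against 6.67 on replicate 5. Tumor epithelium markers averaged 9.59 and 9.56 on replicates 6 and 10, at the top of the PT range of 7.53 to 9.59. Among LungMets arrays replicate 7 was the highest for 17 of the 29 general members and replicate 9 the lowest for 16.

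Across the 11 PT arrays 35 of the other 38 members correlated positively with Pecam1, and 27 did so at an adjusted p under 0.05 in a permutation test (100000 permutations, adjusted over 39 relations). The lowest r among these 27 was 0.683, which 5.1% of all other genes reached, and 39.7% of all genes had an r above 0. Egfl7, a secreted vessel protein, followed Pecam1 most closely, at r = 0.958 (permutation p = 1e-05, adjusted p = 0.00039, the smallest that 100000 permutations can give) and rho = 0.964 (permutation p = 5e-05, adjusted p = 0.00185). It kept r = 0.933 without PT replicates 5 and 10, the arrays farthest from the median, and r = 0.969 in the 7 arrays of date batch 2 alone. Plvap had r = 0.882 (permutation p = 0.00018, adjusted p = 0.00117) and rho = 0.864 (permutation p = 0.00134, adjusted p = 0.00581), with r = 0.869 without those arrays and r = 0.932 in date batch 2. Vwf had r = 0.579 (permutation p = 0.0699, adjusted p = 0.0879) and rho = 0.545 (permutation p = 0.0867, adjusted p = 0.117), which rested on those arrays, since r was -0.00216 without them and 0.589 in date batch 2 with PT replicate 5 among its arrays. The 4 PT arrays of date batch 1 are too few for a value.

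The 3 members with a negative r were Erg, Angpt1 and Prox1. Erg had r = -0.531 (permutation p = 0.0931, adjusted p = 0.11) and rho = -0.70 (permutation p = 0.0201, adjusted p = 0.0326), with r = -0.636 without PT replicates 5 and 10 and r = -0.564 in date batch 2. Angpt1 had r = -0.526 (permutation p = 0.0977, adjusted p = 0.112) and rho = -0.455 (permutation p = 0.163, adjusted p = 0.199), with r = -0.752 without those arrays and r = -0.573 in date batch 2. Neither Pearson value passed after adjustment. On PT replicates 6 and 10, where Pecam1 was lowest, Erg read 8.26 and 8.38 and Angpt1 6.98 and 8.22, in the upper part of their PT ranges.

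Of 48 other genes of vessel growth and signaling, 20 were higher and 3 lower in LungMets than in PT, beside 9.02% and 6.14% of all genes. Vegfd, a ligand of Flt4, had 5.24, 8.50 and 9.61 in LungMets, against 3.74, 5.10 and 8.44 in PT (2.99, adjusted p = 0.000191). Cd36, a fatty acid receptor of capillaries and fat, differed by 2.50 (adjusted p = 0.00085) and Epas1, the hypoxia-inducible factor 2-alpha, by 2.36 (adjusted p = 0.000292). Thbs2, an inhibitor of angiogenesis, had 4.21, 5.16 and 8.79 in LungMets, against 4.84, 8.95 and 9.88 in PT (-2.80, adjusted p = 0.00262). Nid2 (-1.16) and Foxc1 (-1.07) were the other genes called lower. Vegfa, the main ligand of Kdr, differed by 0.38 (adjusted p = 0.454).

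In PT against NMG 7 of the 48 were higher and 17 lower, beside 26.7% and 21% of all genes. The largest rises were Notch4 (9.68), Foxc1 (3.97) and Esm1 (2.39), and the largest falls Cd36 (-4.78), Cav1 (-3.24) and Angptl4 (-3.11). Notch4, a receptor known from endothelium and as a site where mammary tumor virus inserts, read 13.16 and 13.30 in the cultures and 13.19, 13.34 and 13.71 in PT, against 3.17, 3.74 and 4.32 in NMG, and Foxc1 read 8.44 and 8.54 in the cultures against 9.07, 9.39 and 9.93 in PT. Esm1, a secreted product of endothelial tip cells, read only 4.28 and 4.56 in the cultures. It had 5.34, 6.83 and 8.04 in PT, against 4.10, 4.43 and 4.49 in NMG (adjusted p = 8.08e-05), with every PT array above every NMG array, and it was higher still in LungMets than in PT (1.20, adjusted p = 0.00871).

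In LungMets against NL 5 of the 48 were higher, beside 23.8% of all genes, with Notch4 (9.03), Foxc1 (3.90) and Esm1 (1.19) at the top, and 29 lower, beside 22.4%, with Acvrl1 (-2.77), Foxf1 (-2.66) and Cd36 (-2.50) at the bottom. Against NMG, LungMets had 11 higher, beside 23.1%, led by Notch4 (9.68), Esm1 (3.59) and Foxc1 (2.90), and 12 lower, beside 17.9%, led by Angptl4 (-3.22), Cd36 (-2.27) and Hhex (-2.25). NL against NMG had 27 higher, beside 14.3%, led by Foxf1 (4.95), Acvrl1 (4.09) and Gata2 (3.44), and 4 lower, beside 14.5%, led by Thbs2 (-3.65), Angptl4 (-1.64) and Vegfb (-0.87). Foxf1 is a transcription factor of lung mesenchyme and endothelium, and Acvrl1 is the endothelial receptor for BMP ligands in which Eng takes part. In the comparison of each tumor with its own organ 2 were above 0, beside 10.1% (Angptl4 at 1.53 and Vegfb at 0.59), and 13 below, beside 9.68%, led by Foxf1 (-3.00), Acvrl1 (-2.31) and Vegfa (-2.12).

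The cultured cells gave the level of each member without vessels, on 1 array each and with no test. Of the 39 members 18 were lower on both culture arrays than on every tissue array, and 16 were above the array median (5.03 for spheres and 5.00 for monolayer) on both. The share of all genes was computed for neither count, so neither is read as particular to the members. Pecam1 read 3.55 and 4.09, Cdh5 3.34 and 4.00, Erg 3.92 and 3.93 and Fli1 2.22 and 2.31 in spheres and monolayer, all below the medians. Cd34, which progenitor and mesenchymal cells also carry, read 8.72 and 9.59, above the PT median of 7.97. Ets1 read 9.55 and 10.14, Eng 7.22 and 7.56 and Apln 7.21 and 8.09. All 4 of these genes were above the array median in both cultures.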

How the data were processed

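Tissue was snap frozen and total RNA labelled with biotin for Affymetrix mouse arrays. The deposited values are log2 signals that the authors made by RMA in Partek, 45101 probe sets on 28 arrays; the annotation build is not given in the sources used here. Probe sets were named from the platform table (34958 with 1 symbol, 932 with several, 9211 unnamed here), and each of 18194 genes was read from 1 probe set, without a filter on low values. One limma model (version 3.58.1, R 4.3.3) with a mean per tissue group was fitted to the 26 tissue arrays, and adjusted p-values cover all genes. All 39 members are named; of the other pathway genes, the 3 largest rises and falls. The members and lists were chosen with earlier results of these data known. Alternatives were probe set averaging, a low-value filter, rescaling, a fold threshold of 2, variance model, date, replicate block and leaving out arrays. The fit was tested on simulated data. Precision is limited by the number of arrays.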

Additional observations from a re-analysis of the deposited data

Results flagged for a closer look

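Flt1 read 8.37 on LungMets replicate 7, farther above the other 8 LungMets arrays than the spread among them allows (gap of 0.5 of the whole range); chance gives such a gap in about 1 in 20 groups, and 39 members were looked at in LungMets, the 1 group of a size that could be tested. This array also had the highest level of 17 of the 29 general members.

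For 6 members the difference between lung metastasis and normal lung was not the same as that between primary tumor and normal mammary gland: Flt1 (-1.57), Tie1 (-2.06), Sox7 (-1.73), Erg (-2.43), Tmem100 (-3.40) and Ednrb (-2.18), each tested as the difference of both differences; 9.68% of all genes were called in the same direction. The calls of Tmem100, Flt1, Ednrb and Sox7 were lost without any 1 of 11, 5, 4 and 3 arrays. The low PT signals of Tie1, Sox7 and Tmem100 are given above, and their part was not tested.

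Prox1 read 3.14 in spheres and 3.42 in the monolayer, above every NL and NMG array, though still near the level of the Y-linked genes (3.29 and 3.17 in the same cultures); with 1 array each there is no test.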

How the results depend on the processing

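Over all alternatives 8332 of 8568 member results stayed on their side of the threshold, 184 lost a call, 52 gained one and 0 changed sign while called. Apart from leaving out single arrays, counts of called members outside 1.5 times those reported were 13 in LungMets against NMG without PT replicate 5 and LungMets replicate 9 (6 with all arrays), 0 in LungMets against PT within date batch 2 (29), and 11 with the replicate block in the comparison of each tumor with its own organ (6). Leaving out 1 array moved the count by over 1.5 times in PT against NMG and in the comparison of each tumor with its own organ: it gave 26 to 29 called members in LungMets against PT, 29 to 33 in LungMets against NL, 4 to 8 in LungMets against NMG, 28 to 32 in NL against NMG, 16 to 29 in PT against NMG (16 without NMG replicate 3) and 2 to 7 in the comparison of each tumor with its own organ (2 without NL replicate 2 or NMG replicate 2). The cause was not tested. Deviations from the group means of same-numbered LungMets and PT arrays were correlated over 0.1 in 7 of 9 pairs (-0.233 to 0.481, median 0.343, against -0.179 over the 42 other pairs of the same date batch), but 1 of 9 LungMets arrays correlated best with its own number, and no pair with NL or NMG passed 0.1. As not every pair passed and no label ties the numbers, they were not taken as pairs, though a shared source of some LungMets and PT arrays was not tested; the replicate block gave 27 called members in LungMets against PT, 32 in LungMets against NL, 7 in LungMets against NMG, 25 in PT against NMG and 32 in NL against NMG. Fitting only the groups compared was not run for the comparison of each tumor with its own organ, which needs all 4. Averaging the probe sets of a gene removed the calls of Aplnr (0.52), Angpt2 (0.31) and Angpt1 (0.75) in LungMets against PT.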
